A study of Mus musculus with 6 samples.

Results

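Cortical mRNA of STEE-fed SAMP8 mice was set directly against that of SAMR1 mice, without passing through the SAMP8 control arrays that both deposited comparisons share. STEE is an ethanolic extract of sugarcane top. The comparison used 4 of the 6 Affymetrix mouse genome array strips of the series, 2 from SAMP8 + STEE and 2 from SAMR1 + Water, and the 2 SAMP8 + Water arrays (SAMP8 control) served to place a difference and entered the signal floor and the choice of probe set described next. SAMP8 is a senescence-prone inbred strain with early memory deficits, and SAMR1 is the senescence-resistant strain that serves as its normally aging control. The sample labels give an age of 16 weeks for all mice. The paper states that age ahead of acclimatization, feeding and tests, so the mice may have been older when the cortex was taken. It describes the SAMP8 mice as males, and all mice were housed individually. The array measured RNA of the cerebral cortex. STEE was given by mouth at 20 mg/kg for 30 days and on through 8 days of behavioral tests, while SAMR1 and SAMP8 controls received an equal volume of Milli-Q water. The study's animals of every group also drank BrdU, a label of dividing cells. Strain and feeding differ together between STEE-fed SAMP8 and SAMR1, so their contributions cannot be told apart from these 2 groups alone.

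The deposited values are the authors' group means of RMA log2 signal, given to 2 decimals for 45077 probe sets. Each probe set joins short probes that read 1 transcript, and a gene can have several. Values of single mice were not used here, so no spread, error or test can be given, and every difference below is a description of 2 means of 2 mice each. It cannot be said whether the mice of the groups overlapped. The SAMP8 control mean of each probe set was identical in both tables (largest gap 0.0), and the arrays had median signals of 4.16 (SAMR1) and 4.15 (each SAMP8 group). Of 20750 genes, each read from its brightest probe set, 9703 had a mean of at least 5 over the 3 groups and were used for counting. Over these genes the log2 distance from SAMR1 to STEE-fed SAMP8, in absolute size, had a median of 0.10, and 99% of genes were within 0.65. A gene was counted as different at 1.5-fold or more (0.585 on the log2 scale).

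Inbred strains differ at many genes in regulatory sequence, transcript ends and copy number, so a part of any strain comparison follows the genome. Immediate-early genes behave otherwise: neurons transcribe them within minutes of synaptic activity, and their mRNA decays quickly, so their level follows recent experience. A piece of cortex can also carry different amounts of neighbouring striatum, white matter or choroid plexus. In bulk tissue, fewer cells of a type and less RNA per cell cannot be told apart.

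Most of what separated STEE-fed SAMP8 from SAMR1 also separated the SAMP8 controls from SAMR1. Of the 9703 genes, 79 (0.814%) were at least 1.5-fold higher in STEE-fed SAMP8 than in SAMR1 and 52 (0.536%) were at least 1.5-fold lower. At 2-fold, 19 were higher and 12 lower. The differences that picked these 131 genes did not use the SAMP8 control means, which did enter the signal floor and the choice of the brightest probe set. They did use the SAMR1 means, from which the position of the SAMP8 control is also measured. A SAMR1 mean that is off by itself would pick a gene and also move the SAMP8 control to the STEE-fed side. The counts that follow are therefore a description. The SAMP8 control mean lay at least 0.75 of the way from SAMR1 to the STEE-fed mean for 105 of them, between 0.25 and 0.75 of the way for 19, and under 0.25 for 7. None of the 79 higher genes was among the last 7, which were Fos, Junb, Egr2, Nr4a3, Calb2, Zic1 and Fabp7, all lower in STEE-fed mice. The STEE-fed mean was farther from SAMR1 than the SAMP8 control mean for 94 of the 131, but picking genes by the STEE-fed difference favours that order, so nothing is read from this count.

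The highest of all was Gm17167, a predicted gene, at 4.08 (SAMR1), 9.14 (SAMP8 control) and 9.63 (STEE-fed SAMP8). Its STEE-fed mean exceeded SAMR1 by 5.55 on the log2 scale, or 46.9-fold. Wherever 3 values are given for a gene, they are log2 group means and follow this order. Mela, listed as melanoma antigen, stood at 3.85, 7.44 and 7.63, 3.78 or 13.7-fold higher, and its 3 probe sets were all higher, by 1.33 to 4.64. In SAMR1 both were near or below the median signal of the array, and in both SAMP8 groups far above it. Soga3 had means of 4.69, 7.37 and 7.38 (2.69), and Prss22, a serine protease, of 5.02, 7.25 and 7.28 (2.26). For these genes the STEE-fed and SAMP8 control means were within 0.5 of each other while SAMR1 stood apart. Dctn3, a subunit of the dynactin complex that links dynein to its cargo, was bright in every group, at 7.97, 9.52 and 9.65, which is 3.20-fold higher in STEE-fed SAMP8 than in SAMR1. Adat2, a tRNA adenosine deaminase subunit, had 4.25, 5.70 and 5.86. Invs, the gene of the ciliary protein inversin, had 4.95, 5.96 and 6.22. Sh3bgrl2 (4.29, 5.42 and 5.55) and D330040H18Rik (4.33, 6.02 and 6.16) showed the same order.

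Galc encodes the lysosomal enzyme that breaks down the myelin lipid galactosylceramide. Its brightest probe set had 3.65 (SAMR1), 6.67 (SAMP8 control) and 6.72 (STEE-fed SAMP8), 8.40-fold higher. Its other probe sets, both dim, differed by -0.16 and -0.05. The strain difference of Galc was therefore that of 1 probe set, and sequence differences between the strains beneath probes were not tested. Soga3 likewise had a second probe set at -0.05, and the 3 of Pigo, an enzyme of GPI-anchor synthesis, ranged from 0.14 to 1.88. Over all 131 genes, 69 had 2 or more probe sets; in 50 of these all pointed the same way, and in 24 a second one also passed 1.5-fold with none past it the other way.

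On the low side, AI314760, an expressed sequence, had 8.87 (SAMR1), 6.91 (SAMP8 control) and 6.74 (STEE-fed SAMP8); it was 4.38-fold lower in STEE-fed SAMP8 than in SAMR1. A430102J17Rik had 7.22, 5.30 and 5.15. Ppp1r1a, inhibitor 1 of protein phosphatase 1, had 7.96, 6.02 and 5.99 and was 3.92-fold lower. Both SAMP8 groups again sat together, away from SAMR1. Slc18b1, a vesicular polyamine transporter, had 6.68, 5.39 and 5.24. Erdr1 had 9.99, 8.58 and 8.59, although its second, dimmer probe set differed by only -0.18. BC003331 had 7.16, 5.67 and 5.56, with a second probe set at 0.18. Rhox4b (7.23, 5.70 and 5.67) and 1110038B12Rik (7.71, 6.50 and 6.45) each rested on 1 probe set. Tcf7l2, a transcription factor of the Wnt pathway that is abundant in thalamus, had 5.69, 4.72 and 4.66, and the differences of its 4 probe sets ran from -1.30 to -0.42. Ppp1r14a had 6.12, 5.17 and 5.10. The mitochondrial hydrolase gene Hint2 had 6.69, 5.74 and 5.68. Fos was the single gene among the 12 lowest in which the SAMP8 control mean did not side with the STEE-fed mean.

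**Figure D1:**
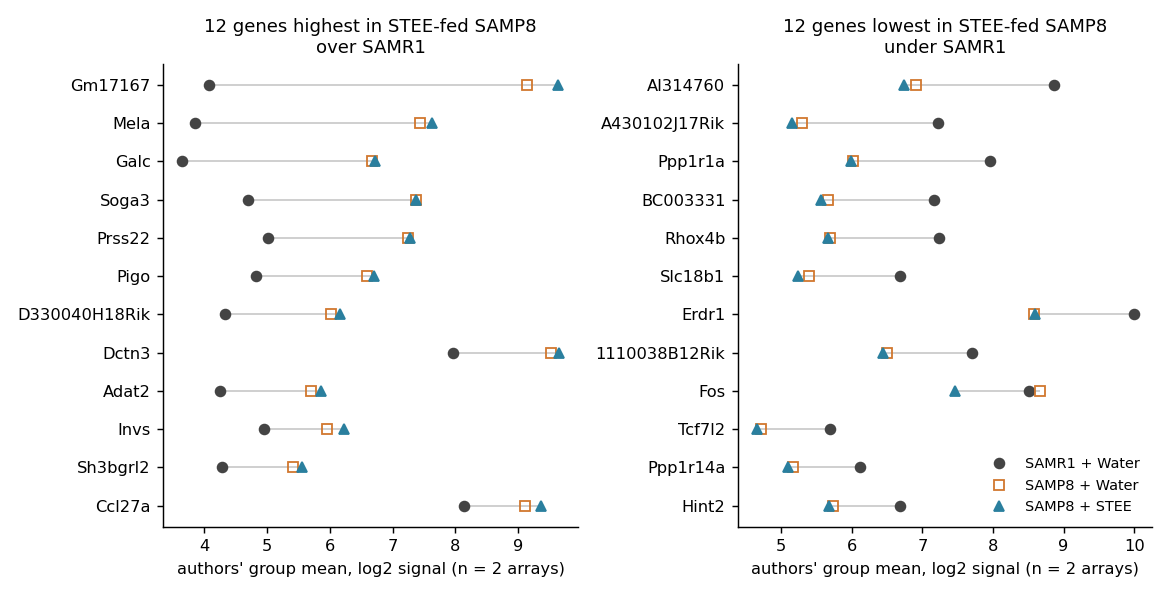
The authors' group means (log2 signal, horizontal axis, 2 arrays per mean, no error available) of the 12 genes highest (left) and the 12 lowest (right) in STEE-fed SAMP8 relative to SAMR1. Circles are SAMR1 + Water, open squares SAMP8 + Water and triangles SAMP8 + STEE; squares and triangles lie within 0.5 of each other in every row but that of Fos, where the square at 8.66 lies beside the circle at 8.51 and the triangle at 7.46.

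The same question was asked from the strain side. Between SAMP8 control and SAMR1, 123 of 9703 genes (1.27%) were at least 1.5-fold apart, 79 higher and 44 lower in SAMP8 control. For each, the log2 difference of STEE-fed SAMP8 from SAMR1 was divided by that of SAMP8 control from SAMR1, so that 1 is the level of the SAMP8 controls and 0 the level of SAMR1. This ratio was at least 0.75 (difference kept) for 99 genes or 80.5%, between 0.25 and 0.75 (smaller) for 20 or 16.3%, and under 0.25 (near SAMR1 or beyond it) for 4 or 3.25%. The median ratio was 0.993, and 58 of the 123 ratios were above 1. Both differences share the SAMR1 arrays, and the genes were picked on the SAMP8 control arrays, so the ratios describe these means and test nothing. Of the 123 genes, 95 were also past 1.5-fold in STEE-fed SAMP8 in the same direction.

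Most large strain differences were kept. Of the 23 genes at least 2-fold apart between SAMP8 control and SAMR1, 21 had a ratio of at least 0.75, and the 13 that were higher in SAMP8 control had ratios from 0.929 to 1.257. The exceptions were Ttr and Cabp7, both lower in SAMP8. Cabp7, a neuronal calcium-binding protein gene, had 6.84, 5.74 and 6.02, a ratio of 0.745 just under the limit. Ttr, transthyretin, the thyroxine carrier made by choroid plexus, had 10.20 (SAMR1), 8.24 (SAMP8 control) and 9.33 (STEE-fed SAMP8), a ratio of 0.444. Its 4 probe sets were all lower in STEE-fed SAMP8 than in SAMR1, with differences from -0.93 to -0.74. Of 11 choroid plexus genes measured, 7 were below the signal floor of 5, and 9 were lower in STEE-fed SAMP8 than in SAMR1, with a list median of -0.13 and with only Ttr past 1.5-fold. The STEE-fed mean was above that of SAMP8 control in 6 of the 11. Over all 20750 genes measured, it was below SAMR1 in 10604 and above SAMP8 control in 9959. Enpp2, the brightest after Ttr, had 9.87, 9.68 and 9.77, and its dimmer probe sets differed from SAMR1 by 0.03 and 0.05. Igfbp2 had 7.21, 7.10 and 7.08, and Clic6 had 5.25, 5.07 and 5.08. Sostdc1 (4.30, 3.81 and 3.79) and Kcne2 (2.92, 2.62 and 2.57) were below the floor. The part of choroid plexus tissue in the Ttr values was not tested.

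**Figure D2:**
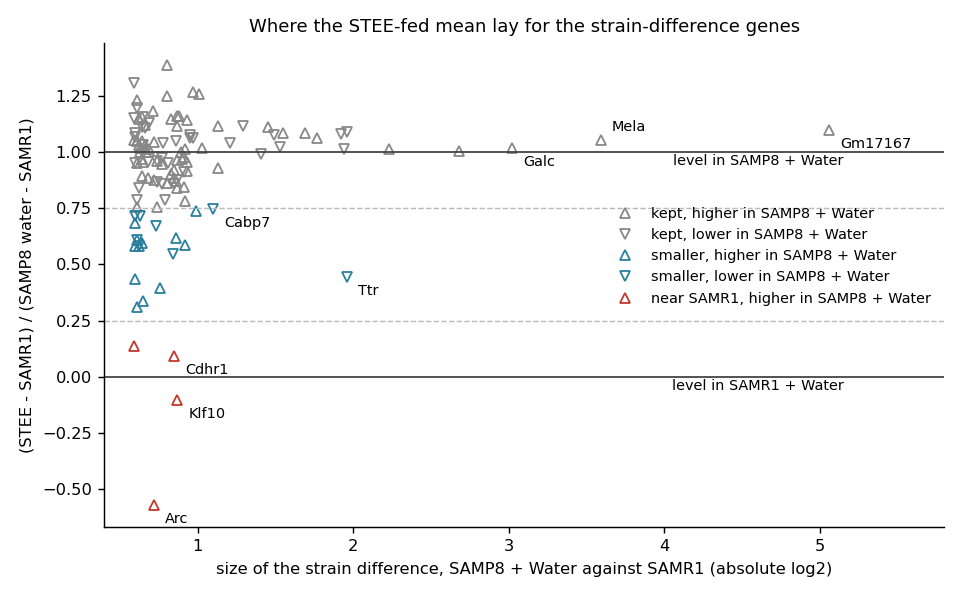
For the 123 genes at least 1.5-fold apart between SAMP8 + Water and SAMR1 (triangles up, higher in SAMP8 + Water; triangles down, lower), the vertical axis gives the STEE-fed difference from SAMR1 divided by the SAMP8 + Water difference, and the horizontal axis the absolute log2 strain difference. Grey, blue and red mark ratios of at least 0.75, 0.25 to 0.75 and under 0.25 (dashed limits); beyond a strain difference of 1 on the log2 scale all points lie at 0.75 or above except Ttr at 0.444 and Cabp7 at 0.745.

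The 8 strain-difference genes whose STEE-fed mean lay nearest to SAMR1 had strain differences of under 1 on the log2 scale. Cdhr1, a photoreceptor cadherin also found in the olfactory bulb, had 4.82 (SAMR1), 5.67 (SAMP8 control) and 4.90 (STEE-fed SAMP8). Dlx1, a transcription factor of forebrain interneurons, had 4.99, 5.58 and 5.07. Klf10, a zinc finger gene induced by TGF-beta and by neuronal activity, had 5.60, 6.47 and 5.51. These 3 and Arc made up the 4 genes with a ratio under 0.25, and all 4 were higher in SAMP8 control. Among the genes with smaller differences, the small GTPase gene Rnd3 had 5.94, 6.55 and 6.13. Zswim6 had 7.17, 7.82 and 7.39. Fosl2, of the Fos family, had 5.98, 6.74 and 6.28, but its second probe set differed by -0.01. The small heat shock gene Hspb1 had 5.39, 5.99 and 5.65, and 2610018G03Rik had 5.63, 6.23 and 5.98. The inducible Hsp70 gene Hspa1b (6.41, 7.33 and 6.95) and the clock gene Per2 (5.86, 6.47 and 6.23) also had intermediate STEE-fed means. For Per2 this held for the brightest probe set, whereas its dimmer ones differed between STEE-fed SAMP8 and SAMR1 by -0.35 and -0.04.

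Activity-induced genes (the immediate-early list) held 4 of those 7 genes whose SAMP8 control mean lay under 0.25 of the way from SAMR1 to the STEE-fed mean. Of 19 such genes, 5 were at least 1.5-fold lower in STEE-fed SAMP8 than in SAMR1 and none higher, where 0.376% of all genes measured were that much lower and 0.492% that much higher. The signal floor was reached by 18 of the 19, and among all genes at or above it 0.536% were that much lower. This list was chosen with earlier results of these data known, so the count describes it and tests nothing. The list median was -0.16 for STEE-fed SAMP8 and 0.25 for SAMP8 control, each relative to SAMR1, and that of all genes measured was -0.01 for STEE-fed SAMP8. In 14 of the 19 the STEE-fed mean was below that of SAMR1, and in 18 of the 19 below that of SAMP8 control. Over all 20750 genes measured it was below SAMR1 in 10604 and below SAMP8 control in 9806.

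Fos, a component of the AP-1 transcription factor, had 8.51 (SAMR1), 8.66 (SAMP8 control) and 7.46 (STEE-fed SAMP8); it was 2.07-fold lower in STEE-fed SAMP8 than in SAMR1. Its partner gene Junb had 6.06, 5.88 and 5.19. Egr2, a zinc finger transcription factor, had 5.38, 5.77 and 4.54, and its second probe set (4.33, 4.77 and 3.41) showed the same order. In all 3 genes the STEE-fed mean was the lowest of the groups. Nr4a3, an orphan nuclear receptor, had 7.05, 7.47 and 6.46, whereas its 2 dimmer probe sets differed by -0.13 and -0.05. Dusp1, a phosphatase that switches off MAP kinases, had 8.42, 8.23 and 7.75. Btg2 (6.36, 6.22 and 6.06) was within 1.5-fold by its brightest probe set, but its second differed by -0.70.

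Arc, whose protein acts at active synapses, was one of the strain-difference genes, at 7.64 (SAMR1), 8.36 (SAMP8 control) and 7.23 (STEE-fed SAMP8). Its STEE-fed mean therefore lay past SAMR1, on the side away from the SAMP8 controls, at a ratio of -0.569. Nr4a1 had 8.77, 8.91 and 8.34, and Egr4 had 5.0, 5.25 and 4.68. Egr1, the brightest of the list, had 10.27, 10.76 and 10.19, so that STEE-fed SAMP8 and SAMR1 were 0.08 apart. Not every member was low. Egr3 had 9.42 in SAMR1 and 10.03 in SAMP8 control, and STEE-fed SAMP8 was 0.58 above SAMR1, nearly level with the SAMP8 controls. Its second, dimmer probe set differed by -0.02. Homer1, a postsynaptic scaffold gene, had 8.94, 9.24 and 9.34, and its 5 probe sets were all higher in STEE-fed SAMP8 than in SAMR1, by 0.24 to 0.70. Jun (6.63, 6.65 and 6.62) and Npas4 (5.31, 5.30 and 5.24) were nearly level over the 3 groups.

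**Figure D3:**
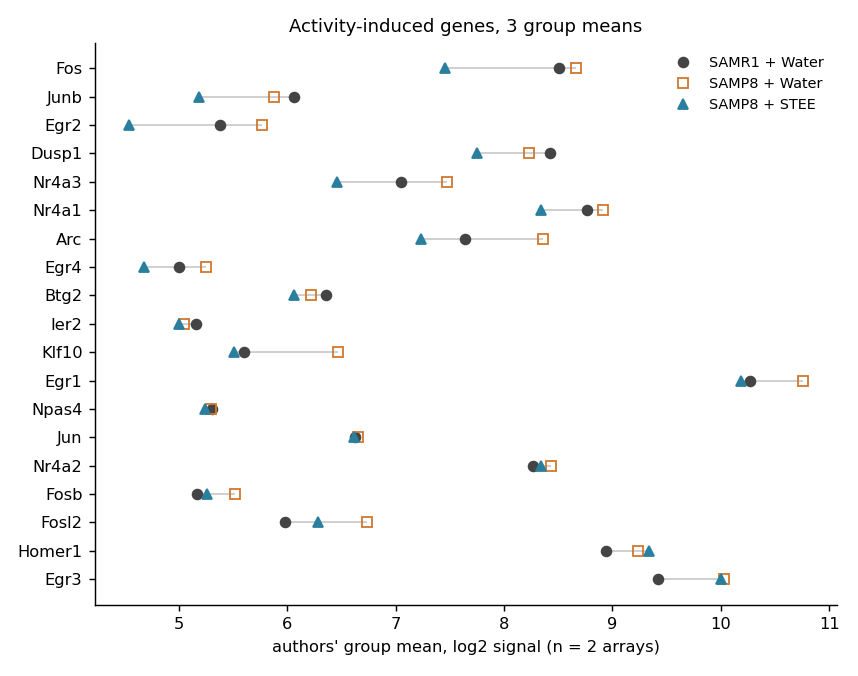
Authors' group means (log2 signal, 2 arrays each, no error available) of 19 activity-induced genes, sorted by the STEE-fed minus SAMR1 difference. The triangle of SAMP8 + STEE is the leftmost symbol in the upper 14 rows, from Fos at 7.46 to Jun at 6.62, and lies with or beyond the square of SAMP8 + Water in the lowest rows, Homer1 and Egr3.

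The promoters of 4 of the 5 activity-induced genes past 1.5-fold are shown because they hold a cyclic AMP response element core, the site at which CREB acts on many activity-induced genes. The sequences are the 250 bases before the RefSeq transcription start (GRCm38.p6), 5′ to 3′ on the gene's strand. Capitals mark TGACGT or its reverse complement ACGTCA and, in Egr2, also a CArG box, the site of serum response factor. Egr2 has 5 listed starts, of which 4 have a CArG box in this window, and 1 of these is shown.
Fos, chr12:85473640-85473889 (+): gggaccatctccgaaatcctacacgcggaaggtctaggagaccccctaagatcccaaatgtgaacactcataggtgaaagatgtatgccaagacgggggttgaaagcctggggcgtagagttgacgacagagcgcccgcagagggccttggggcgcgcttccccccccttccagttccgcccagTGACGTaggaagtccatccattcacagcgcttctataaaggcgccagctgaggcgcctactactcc
Egr2, chr10:67537619-67537868 (+): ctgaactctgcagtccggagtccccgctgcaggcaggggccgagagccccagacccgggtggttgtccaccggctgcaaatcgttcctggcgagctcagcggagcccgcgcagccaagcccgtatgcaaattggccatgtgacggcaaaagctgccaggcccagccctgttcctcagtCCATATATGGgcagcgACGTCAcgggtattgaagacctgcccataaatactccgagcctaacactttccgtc
Nr4a3, chr4:48045055-48045304 (+): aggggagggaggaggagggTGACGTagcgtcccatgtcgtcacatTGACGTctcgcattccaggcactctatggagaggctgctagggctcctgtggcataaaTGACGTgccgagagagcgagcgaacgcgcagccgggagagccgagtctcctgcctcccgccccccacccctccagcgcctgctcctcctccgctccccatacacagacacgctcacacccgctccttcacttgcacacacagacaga
Dusp1, chr17:26508473-26508722 (-): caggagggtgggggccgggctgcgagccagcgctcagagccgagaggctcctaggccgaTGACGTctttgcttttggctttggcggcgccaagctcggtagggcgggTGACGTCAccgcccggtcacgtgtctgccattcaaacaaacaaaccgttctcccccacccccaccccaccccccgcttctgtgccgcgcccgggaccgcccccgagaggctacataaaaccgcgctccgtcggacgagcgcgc
In Fos the element lies 66 bases before the start. In Egr2 the CArG box lies 72 bases and the other element 56 bases before it. On either strand TGACGT was found in 6.47% of all 32851 promoter windows and in 7.29% of the 27025 genes that have one, and a CArG box in 1.47% and 1.62%. Of the 19 activity-induced genes, 14 have a promoter window, 8 of them with TGACGT and 1 with a CArG box. These 8 include Egr4, Npas4, Btg2 and Homer1, which were within 1.5-fold by their brightest probe sets, Homer1 being higher in STEE-fed SAMP8. Junb had neither site, and Arc, Egr1, Egr3, Ier2 and Klf10 have no entry. These letter matches describe the windows and say nothing about binding in these mice.

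Calb2, Zic1 and Fabp7 were the other members of the 7 genes whose SAMP8 control mean lay under 0.25 of the way to the STEE-fed mean. Calb2, calretinin, a calcium-binding protein of a class of interneurons, had 6.94, 6.83 and 6.10. Zic1, a zinc finger transcription factor of medial forebrain and thalamus, had 7.67, 7.68 and 7.03, and its second probe set differed by -0.97. Fabp7, a fatty acid-binding protein of radial glia and astrocytes, had 8.26, 8.43 and 7.63. Zic1 was the single gene past 1.5-fold among the 5528 in which SAMP8 control and SAMR1 were within 0.1 of each other. The next lowest of these were Clk1, a splicing kinase gene (8.96, 8.89 and 8.50), 5330406M23Rik (8.65, 8.69 and 8.22) and the clock gene Per1 (7.23, 7.17 and 6.83), none of which reached 1.5-fold, followed by Pvr (-0.39) and Scaf11 (-0.37). The highest were Fkbp5, a co-chaperone gene induced by glucocorticoids, at 6.51, 6.61 and 7.07, and Sult1a1, a phenol sulfotransferase gene, at 5.05, 5.04 and 5.60. They were followed by 1110032F04Rik (0.46), Dact2 (0.40), Ccsap (0.39) and Ppapdc2 (0.38). The dimmer probe sets of Fkbp5 differed by 0.03 and 0.22, that of 1110032F04Rik by -0.13, and those of Dact2 by -0.17 and 0.05. That of Ccsap differed by 0.48, and those of Ppapdc2 by -0.01 and 0.70. On the low side, the dimmer ones of Pvr ran from -0.17 to -0.09 and those of Scaf11 from -0.04 to 0.06.

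Marker genes of tissue next to cortex differed between STEE-fed SAMP8 and SAMR1, and the list medians were similar in SAMP8 control. Over all 20750 genes measured, 9352 were higher in STEE-fed SAMP8 than in SAMR1 and 10604 lower. All 11 striatum genes were higher in STEE-fed SAMP8 than in SAMR1, by 0.42 to 1.05 with a median of 0.63. Of these, 6 passed 1.5-fold, where 0.492% of all genes measured were that much higher. All 11 reached the signal floor, and among genes at or above it the share was 0.814%. The median was 0.61 for SAMP8 control. Drd1a, the dopamine D1 receptor, had 7.47, 8.36 and 8.36. Gpr6 had 6.21, 7.24 and 7.26. Ppp1r1b, the dopamine-regulated phosphatase inhibitor DARPP-32, had 7.13, 8.00 and 7.97, and the enkephalin precursor gene Penk had 9.0, 9.72 and 9.63. Pde10a (8.86, 9.47 and 9.61) also passed, although the median of its 5 probe sets was 0.45, while Drd2 (6.21, 6.56 and 6.68) and Adora2a (6.51, 6.91 and 6.93) did not.

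The 8 thalamus genes were all lower in STEE-fed SAMP8 than in SAMR1, with a median difference of -0.405, against -0.49 for SAMP8 control, and 3 of them passed 1.5-fold, where 0.376% of all genes measured were that much lower. These were Tcf7l2, Zic1 and Prkcd, a protein kinase C gene of thalamic relay neurons, at 6.31, 5.53 and 5.50. The second probe set of Prkcd differed by -0.26, and the median of both, -0.535, was within 1.5-fold. Slc17a6, the vesicular glutamate transporter of thalamus, had 7.42, 6.69 and 6.93, a difference of -0.49, and its second probe set was past 1.5-fold at -0.80. Of 11 myelin genes all were lower in STEE-fed SAMP8 than in SAMR1 with a median of -0.38, none of them past 1.5-fold, and 10 were lower in SAMP8 control. Mbp had 12.18, 12.03 and 11.95, with differences from -0.73 to -0.01 over its 8 probe sets. Mobp had 10.54, 10.15 and 10.15, and Ugt8a, a galactosylceramide synthase, had 7.97, 7.69 and 7.47. Among 8 hippocampus genes, 7 were below the signal floor and 1, Dsp, passed 1.5-fold on the low side (3.86, 3.30 and 3.12). The brightest probe set of Prox1 differed by -0.22 and a dimmer one by -0.73. How far unequal amounts of striatum, thalamus and white matter account for other differences was not tested.

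All 12 cortical layer genes measured were at or above the signal floor, and 11 were higher in STEE-fed SAMP8 than in SAMR1 with a median of 0.155, of which Lamp5, a gene of superficial layers and of a class of interneurons, passed 1.5-fold (9.23, 9.79 and 9.89). Slc17a7, the cortical vesicular glutamate transporter, had 7.05, 7.10 and 7.19. Astrocyte and microglia genes, 10 of each, had medians of -0.05 and 0.015, and none passed 1.5-fold. Of 10 interneuron genes, Vip was higher (7.84, 8.71 and 8.85) and Calb2 lower, with a median of 0.215 for the list. In endothelium and pericytes, Abcb1a, the efflux pump P-glycoprotein of the blood-brain barrier, was the only 1 of 9 genes past 1.5-fold by its brightest probe set. It had 4.41, 5.32 and 5.30, and its second, dimmer probe set differed by 2.33. The brightest probe set of Rgs5 differed by -0.05, but its dimmer ones by 0.34 to 0.92. The 3 blood genes measured were all below the floor and had a median difference of -0.02.

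Monoamine genes were read because the study also measured monoamine levels in cortex. By ELISA it reported less dopamine and norepinephrine in SAMP8 controls than in SAMR1, and levels restored with STEE. That is neurotransmitter content, whereas the values here are RNA, and the relation of the 2 was not tested. Of 11 genes, 4 were at least 1.5-fold lower in STEE-fed SAMP8 than in SAMR1 and none higher, where 0.376% of all genes measured were that much lower, and the list median was -0.19. Slc6a3, the dopamine transporter, had 5.12, 4.03 and 3.96. Ddc, the decarboxylase that makes dopamine and serotonin, had 5.61, 4.55 and 4.49, but its second probe set differed by -0.03 and the median of both, -0.575, was within 1.5-fold. Slc18a2, the vesicular monoamine transporter, had 3.63, 2.69 and 2.53. In these 3 the SAMP8 control mean was within 0.16 of the STEE-fed mean. Th, tyrosine hydroxylase, which makes the dopamine precursor, had 3.92, 3.81 and 3.23, with the STEE-fed mean apart from both water groups. All 4 had a mean under the signal floor of 5. The brighter genes of monoamine breakdown were closer, with Maoa at 6.57, 6.46 and 6.38 and Maob at 6.65, 6.76 and 6.59.

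In the remaining lists no gene was past 1.5-fold by its brightest probe set, but dimmer probe sets of Hspa1b, Bdnf, Pfkp, H2-K1 and H2-D1 were. Hspa1b, an inducible heat shock protein gene, had 6.41, 7.33 and 6.95, a difference of 0.54, and its other probe sets differed by 0.73 and 0.76. The second probe set of Bdnf differed by 0.64. The lowest probe set of Pfkp, a phosphofructokinase gene, differed by -0.89 and its brightest by 0.0. Among MHC class I genes, probe sets of H2-K1 ran from -1.65 to -0.11 and those of H2-D1 from -1.20 to 0.82. All 12 interferon-stimulated genes and all 14 heat shock and ER stress genes were higher in STEE-fed SAMP8 than in SAMR1. Of all 20750 genes measured, 9352 were higher. The list medians were 0.255 and 0.26, and in SAMP8 control 0.24 and 0.33. Only 2 of the 12 interferon-stimulated genes reached the signal floor. Ifit1 had 3.07, 3.65 and 3.49, and Hspa5, the ER chaperone BiP, had 8.67, 9.14 and 9.0. Medians lay between -0.06 and 0.06 in the lists MHC and antigen presentation (13 genes), glycolysis and pyruvate (20), clock (16), neurotrophin (7), cholinergic (8), glutathione and antioxidant (16), cholesterol synthesis (14), amyloid and tau (14), male (4) and female (1). Within them, the lactate dehydrogenase gene Ldha had 9.04, 9.26 and 9.24, Pgk1 10.24, 10.28 and 10.30, and App 11.52, 11.61 and 11.60. Bdnf had 6.08, 6.34 and 6.10. The BDNF receptor gene Ntrk2 had 9.51, 9.71 and 9.85 by its brightest probe set. Between STEE-fed SAMP8 and SAMR1, the differences of its 8 probe sets ran from -0.44 to 0.42 with a median of 0.085.

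The study drew heat maps of genes it had picked on these same arrays, so their directions are not independent evidence. Of 27 genes shown as moving with STEE towards SAMR1, none was past 1.5-fold between STEE-fed SAMP8 and SAMR1. In SAMP8 control, too, all but Lgr5 (0.69) were within 1.5-fold of SAMR1. The median difference was 0.01, against -0.09 for SAMP8 control. SAMP8 control was above SAMR1 in 12 of these genes and below it in 15. Opposite signs cancel in such a median, so nothing is read from it. The STEE-fed mean was nearer to SAMR1 than the SAMP8 control mean in 21 of the 27, against 9152 of all 20750 genes measured. Tnik, a kinase gene of the Wnt pathway, had 7.97, 7.49 and 8.06, and the transcription factor gene Sox4 had 7.60, 8.02 and 7.57. Gadd45b, an activity-induced gene of DNA demethylation, had 5.48, 5.84 and 5.08, passing beyond SAMR1. Of 18 genes shown as differing with STEE alone, none passed 1.5-fold, and the median was 0.15. Mertk, a receptor for engulfment, had 6.18, 6.32 and 6.69, and Jag1, a Notch ligand, had 5.91, 5.72 and 5.42. Each gene was read here from its brightest probe set, which need not be the one in the heat maps.

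**Figure D4:**
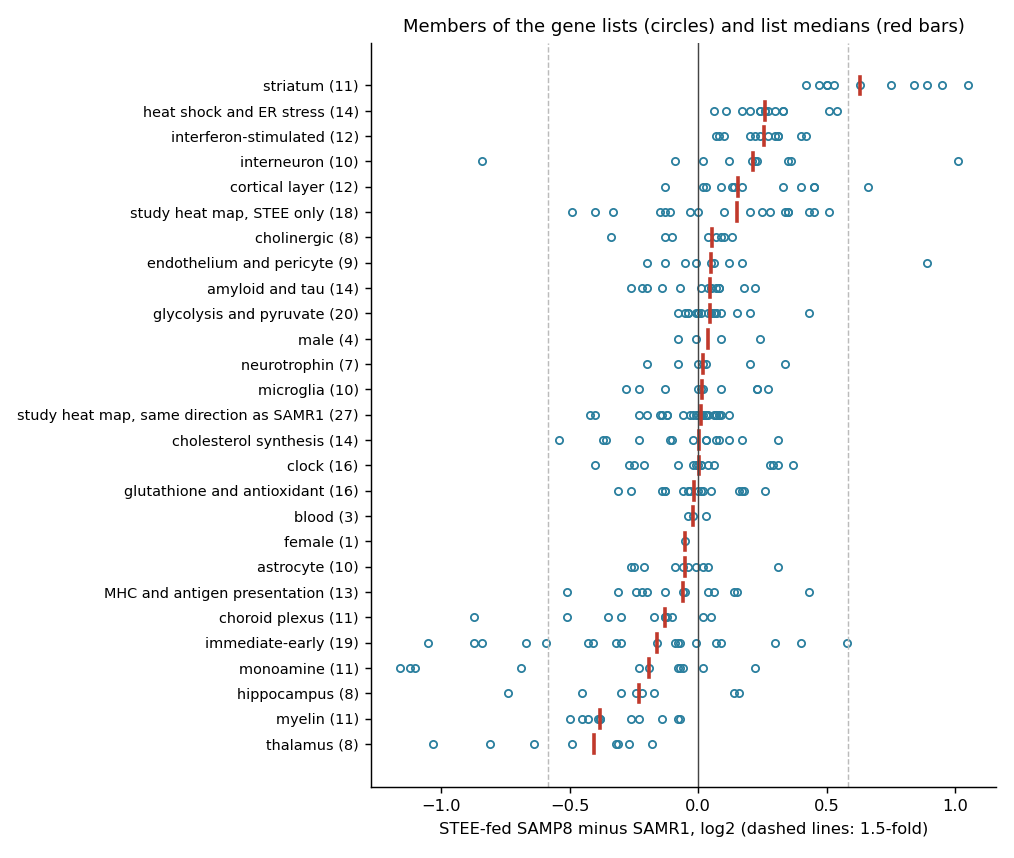
Differences of STEE-fed SAMP8 from SAMR1 (log2) for every measured member of 27 gene lists, sorted by list median; the number measured is in parentheses, red bars are list medians, and dashed lines mark 1.5-fold. Striatum genes all lie to the right (median 0.63), thalamus and myelin genes all to the left (medians -0.405 and -0.38), and most other lists straddle 0.

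Genes at least 1.5-fold apart between STEE-fed SAMP8 and SAMR1 often lay near one another in the genome. Of the 122 such genes with a place in the RefSeq gene order, 35 (28.7%) had another such gene among the 5 measured genes on either side, compared with 1049 of all 9311 placed genes (11.3%). The share was 30.2% among the 96 in which the SAMP8 control mean lay at least 0.75 of the way to the STEE-fed mean. Among the other 26 it was 23.1%, which is 6 genes. In the stretch from Ccl27a to Reck, chosen after the values were seen, 4 of 19 measured genes were past 1.5-fold, 2 higher and 2 lower. The higher ones were the chemokine gene Ccl27a (8.14, 9.11 and 9.37) and Pigo (4.82, 6.59 and 6.70). The lower ones were Hint2 and Reck, an inhibitor of metalloproteases (6.20, 5.60 and 5.55). Between them lay genes such as Vcp (9.50, 9.48 and 9.44) and Unc13b (7.46, 7.33 and 7.46) that were level. Ccl27a has near-identical copies nearby, so its probe set may report on several of them. Over all 4, the SAMP8 control mean lay on the STEE-fed side.

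**Figure D5:**
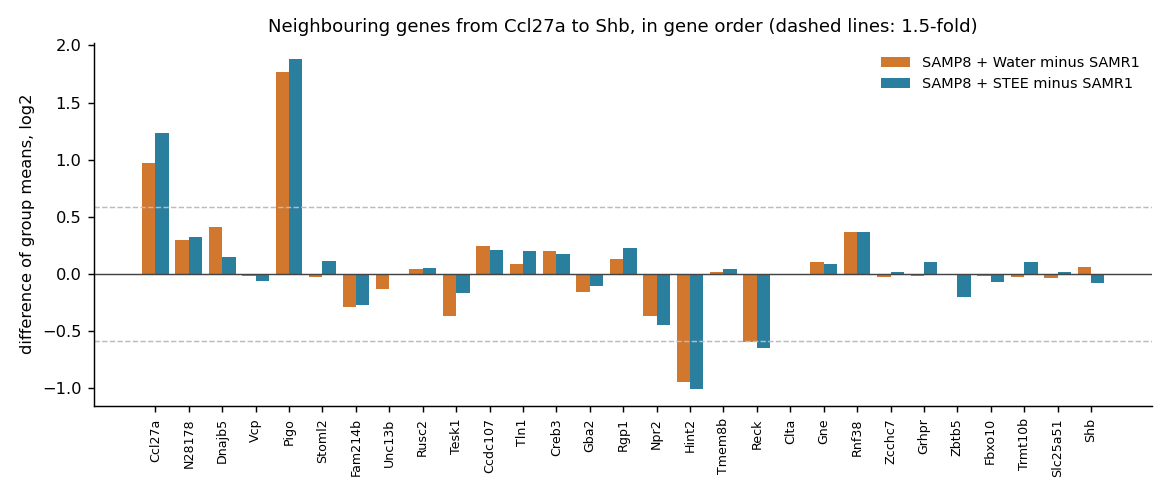
Differences from SAMR1 (log2, vertical axis) of SAMP8 + Water (orange bars) and SAMP8 + STEE (blue bars) for measured genes in gene order from Ccl27a to Shb, each bar a difference of 2 authors' means of 2 arrays. The orange and blue bars point the same way at the 4 genes past the dashed 1.5-fold lines, from Ccl27a (1.23 in STEE-fed SAMP8) to Reck (-0.65), and the genes after Reck stay within those lines.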

How the data were processed

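RNA of cerebral cortex from 6 mice was hybridised by the authors to Affymetrix mouse genome array strips, 2 mice per group. Per the labels, probe intensities were condensed by RMA in Affymetrix Expression Console, and the authors used Transcriptome Analysis Console, which wrote the 2 deposited tables. What the authors deposited on the log2 scale are group means (bi-weight averages) of 45077 probe sets to 2 decimals. The tables also hold fold changes, p-values and FDR p-values of the authors' own 2 comparisons, which were not used. The genome build is not given in the sources used here.

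The tables were joined by probe set, and SAMP8 + STEE minus SAMR1 + Water was computed from the deposited means. RMA ran on all arrays together as far as the identical SAMP8 + Water means show. Rounding allows an error of up to 0.01 in a difference. The number of arrays, 2 per group, limits precision, and without values per array no SD, interval or test could be computed. A gene is a probe set entry with a single symbol (38130 probe sets, 20750 genes), taking the probe set that is brightest over the 3 groups. Probe sets with no symbol (5694) or several symbols (1253) were left out. Genes with a mean under 5 were left out of counts, but not of gene lists.

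The genes named are the 12 highest and 12 lowest in STEE-fed SAMP8 relative to SAMR1, the 8 strain-difference genes nearest to SAMR1 and the 8 largest, the 6 highest and 6 lowest among genes level in SAMP8 control, and members of 27 gene lists, of whose 325 entries 317 were measured, 3 under an older symbol. In the lists, those past 1.5-fold and bright ones were preferred, and other members were picked as examples after their values were seen. These members and lists were chosen with earlier results of these data known. Gene order and promoters came from RefSeq tables of GRCm38.p6; the probes were not mapped to it, so no coordinates of array features are given. Alternatives were other signal floors, 2-fold, the median over probe sets, centring, and genes with agreeing probe sets. Grouping and counting were tested on simulated data. Python 3.11.15, numpy 2.4.6, pandas 2.3.3 and matplotlib 3.10.9 were used. A few genes of the lists and of the gene order are not reported here by name.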

Additional observations from a re-analysis of the deposited data

Results flagged for a closer look

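Probe sets that carry no gene symbol or several were outside the comparisons. Of 1570 such probe sets at or above the signal floor, 35 exceeded SAMR1 by 1.5-fold or more in STEE-fed SAMP8 and 17 were as much below it, 30 of these 52 without a symbol and 22 with several. Each of the 4 most extreme is given with its means in SAMR1, SAMP8 control and STEE-fed SAMP8. Probe set 1435579_PM_at, with no symbol, had 3.62, 8.56 and 9.21, a difference of 5.59 between STEE-fed SAMP8 and SAMR1. Probe set 1447937_PM_a_at, which lists 4933409K07Rik and other near-identical entries, had 4.93, 8.78 and 9.49, a difference of 4.56. On the low side, 1456216_PM_at had 9.51, 7.10 and 7.13, a difference of -2.38, and 1448057_PM_at had 6.61, 4.54 and 4.67, a difference of -1.94, both without a symbol. In all 4 the SAMP8 control mean stood with the STEE-fed mean. Single samples were not screened, as only group means were used.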

How the results depend on the processing

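No paired analysis was possible because the deposited values are group means that carry no replicate number, and for the same reason no replicate could be left out. Centring on the median difference of all probe sets left every count within 1.5 times its value, as did dropping the signal floor, except that 7 rather than 4 strain-difference genes were then near SAMR1. With a floor of 6, 32 genes were lower in STEE-fed SAMP8 than in SAMR1 instead of 52, and 76 genes differed between SAMP8 control and SAMR1 instead of 123, of which 62 were kept, 13 smaller and 1 near SAMR1. At 2-fold, 19 genes were higher and 12 lower, and of 23 strain-difference genes 21 were kept, 2 smaller and 0 near SAMR1. With the median over all probe sets of a gene, 10 strain-difference genes rather than 20 had a smaller difference, and the medians of the striatum and myelin lists were 0.47 and -0.27 instead of 0.63 and -0.38. Under that setting 3 genes past 1.5-fold turned, Galc to -0.05, Myo6 to -0.23 and Vamp3 to -0.005, and 89 of the 131 genes were still past 1.5-fold in the same direction; centring left 129. An alternative chosen after seeing the data, using only genes with at least 2 probe sets that all differ the same way, left 31 higher and 19 lower genes. Probe sets near the bottom of the signal range limit what the array can separate, and no count here has an error.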

Other observations

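Among the genes past 1.5-fold that no list held, several are known from oligodendrocytes and were picked here after their values were seen. Aspa, aspartoacylase, had 6.69 (SAMR1), 6.10 (SAMP8 control) and 5.92 (STEE-fed SAMP8). Car2, carbonic anhydrase, had 10.06, 9.53 and 9.35. Elovl7, a fatty acid elongase gene, had 6.54, 5.99 and 5.76, and its 6 probe sets were all lower in STEE-fed SAMP8 than in SAMR1, with differences from -1.17 to -0.15. St18, a transcription factor gene, had 5.45, 4.85 and 4.81. In each of these 4 the STEE-fed mean was the lowest.

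A few genes were higher in STEE-fed SAMP8 than in SAMR1 by more than in SAMP8 control, and were also picked after their values were seen. Ddit4l, an inhibitor of mTOR signalling, had 6.50, 6.92 and 7.39, and its 3 probe sets were higher by 0.89 to 1.24. Zbtb16, a zinc finger gene, had 7.31, 7.47 and 7.94, and its 3 probe sets were higher by 0.50 to 0.65. Crh, corticotropin-releasing hormone, had 5.04, 5.84 and 6.15. Cbln4, of the cerebellin family of synaptic organisers, had 6.10, 6.51 and 6.80. For Ddit4l and Zbtb16 the SAMP8 control mean lay less than midway from SAMR1 to the STEE-fed mean.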
